A study of Mus musculus with 10 samples.

Results

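Etv4 and Etv5 are 2 of the 24015 genes in the deposited count tables, and their rows were taken by symbol from all 10 libraries. Together with Etv1 they form the PEA3 subfamily of ETS transcription factors, which recognise DNA through a conserved ETS domain. Signalling from fibroblast growth factor (FGF) receptors through RAS and the kinase ERK is known to switch these genes on, in part by lifting their repression by the protein Capicua (gene Cic). The ubiquitin ligase COP1, with its partner DET1, is known to mark PEA3 proteins for degradation. In mouse embryonic stem cells Etv4 and Etv5 are known for roles in proliferation and in the exit from naive pluripotency, the state that inhibitors of GSK3 and of the ERK pathway help to hold.

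All libraries came from mouse embryonic stem cells derived from the inner cell mass and fitted with a Wnt/β-catenin activity reporter. They grew on gelatin with leukaemia inhibitory factor (LIF) and were split about every 48 h. The 10 RNA-seq libraries form 5 groups of 2: original culture in serum with LIF (serum), 2i with LIF for 5 to 6 passages (first 2i), and 2i with LIF for more than 13 passages (long 2i). The remaining groups are more than 13 passages in 2i followed by 6 in serum (serum return), and 13 passages in 2i followed by 6 in serum and 4 to 5 more in 2i (second 2i). The labels do not say that second 2i descends from the serum return cultures sampled here, and they give its first stay in 2i as 13 passages where serum return has more than 13. The 2i medium contained a GSK3 inhibitor at 3 µM together with the ERK inhibitor PD at 1 µM, and both agents were always present together. Each 2i group was thus sampled with the ERK inhibitor in the medium, but ERK activity itself is not measured by these libraries. The sources used here do not give the strain, the number of lines or clones, or whether replicates were separate cultures, so p-values measure only how far these libraries spread, and that spread may be technical.

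Each library held 16809070 to 27766338 counts in genes. The chi-square per degree of freedom between replicates was 3.47 to 4.79 in 4 groups and 25.5 in serum return, or 6.98 there without Rn45s, the ribosomal RNA precursor. Levels are given as CPM, counts per 1000000 of the library's total over tested genes after scaling with TMM factors. The summed level of 5 embryonic stem cell markers (Pou5f1, Sox2, Nanog, Esrrb, Zfp42) was 3787 to 5461 CPM in each library. Markers of other cells were lower. The sums were 1.66 to 29.3 CPM for 6 fibroblast genes, 5.27 to 51.4 CPM for 6 primitive endoderm genes, 34.4 to 52.5 CPM for 5 trophectoderm genes, 25.3 to 84.6 CPM for 4 neural genes and 55.7 to 126.6 CPM for 5 endothelial and blood genes. Postn and Elf5 had no counts in serum, Ptprc none in serum, first 2i and second 2i, and Tal1 none in second 2i. In bulk libraries fewer cells of a type and less RNA per cell cannot be told apart.

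Etv4 and Etv5 stood at similar levels in serum and parted in 2i. Etv4 read 277.02 and 287.89 CPM in the libraries from serum (5792 and 5525 counts) and 4.49 and 4.72 CPM in first 2i (96 and 97 counts). It then read 135.47 and 141.41 CPM in long 2i (2292 and 2679 counts), and 274.01 and 292.68 CPM in serum return (7639 and 6291 counts). Second 2i gave 22.4 and 22.3 CPM (411 and 423 counts). Serum and serum return overlapped, and each other pair of groups was separated with no overlap between libraries. As a share of the mean in serum, Etv4 stood at 1.63% in first 2i, 49.0% in long 2i, 100.3% in serum return and 7.91% in second 2i.

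Etv5 stayed near its serum level. It read 357.23 and 354.74 CPM in serum (7469 and 6808 counts), 335.49 and 343.77 CPM in first 2i (7172 and 7059 counts), and 449.21 and 454.9 CPM in long 2i (7600 and 8618 counts). In serum return it read 384.28 and 379.96 CPM (10713 and 8167 counts), while second 2i gave 401.72 and 418.48 CPM (7373 and 7936 counts). The groups did not overlap, but the whole span from the lowest group mean to the highest was 1.33-fold, against 61.5-fold for Etv4. Of 14220 genes tested, 80 (0.563%) had a wider log2 span of group means than Etv4, whereas 82.1% had a wider span than Etv5.

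**Figure D1:**
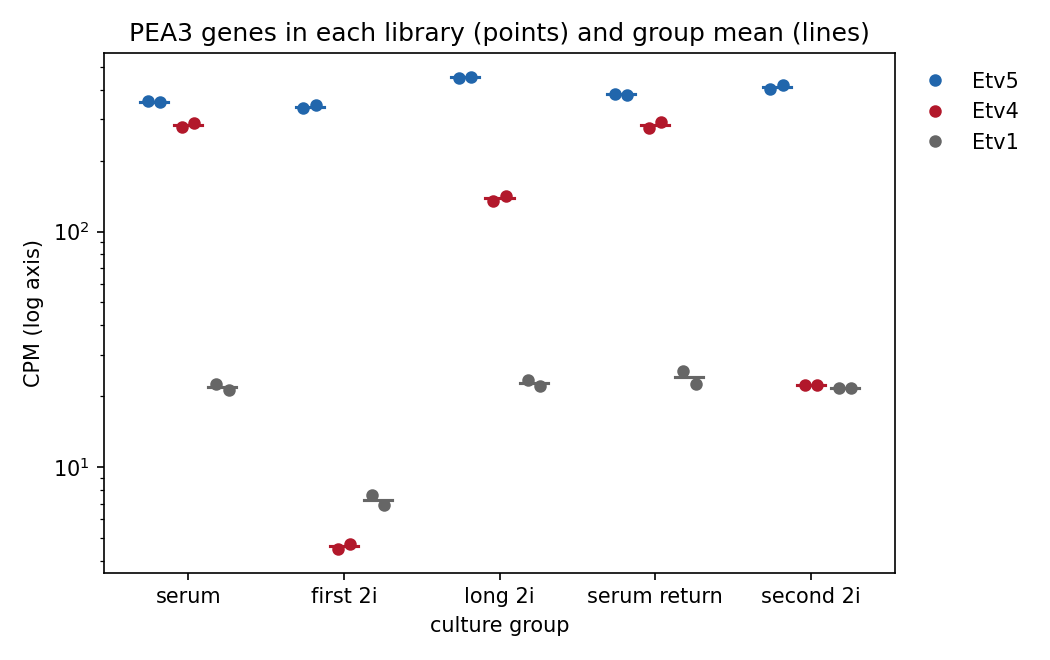
CPM of Etv5, Etv4 and Etv1 in each library on a log axis (points) with the mean of the 2 libraries (lines), by culture group. Etv5 lies between 335.49 and 454.9 CPM throughout, while Etv4 drops to 4.49 and 4.72 CPM in first 2i and to 22.4 and 22.3 CPM in second 2i.

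Etv1, the remaining PEA3 gene, is not one of the pair but was measured beside it. It read 22.6 and 21.3 CPM in serum, 7.58 and 6.92 CPM in first 2i, then 23.4 and 22.2 CPM in long 2i. Serum return gave 25.5 and 22.6 CPM, and second 2i gave 21.6 and 21.6 CPM. The first 2i libraries lay below all others.

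Between genes, levels are comparable only per length. Exons of Etv4 cover 3104 bases and those of Etv5 4103 bases in GENCODE M21, an annotation of GRCm38 and not the one used for counting. On the scale of CPM per kilobase of exon, the level in serum was 91.0 ± 2.5 for Etv4 and 86.8 ± 0.43 for Etv5 (SD, n = 2). In first 2i these levels were 1.48 ± 0.053 and 82.8 ± 1.4, and in long 2i 44.6 ± 1.4 and 110.2 ± 0.98. Per kilobase of the longest annotated transcript, the levels in serum were 118 for Etv4 and 89.6 for Etv5. Etv4 was thus the higher of the pair in serum by both lengths and the lower in first and long 2i. In serum return the order depended on the length used. Etv4 stood at 91.3 and Etv5 at 93.1 there per kilobase of exon, against 118.3 and 96.1 per kilobase of the longest transcript.

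The relation of the genes within a library does not depend on library scaling. For every 100 counts of Etv5 the libraries held 77.5 and 81.2 counts of Etv4 in serum, 1.34 and 1.37 in first 2i, then 30.2 and 31.1 in long 2i. Serum return had 71.3 and 77.03, and second 2i had 5.57 and 5.33. The mean log2 ratio of Etv4 to Etv5 was -0.33 ± 0.05 in serum, -6.20 ± 0.03 in first 2i, -1.71 ± 0.03 in long 2i, -0.43 ± 0.08 in serum return and -4.20 ± 0.05 in second 2i (SD, n = 2). The ratio differed between the 5 groups (F = 5400, exact permutation test over the 945 ways of forming 5 pairs, p = 0.00106, the smallest this design allows). A comparison of 1 group with another by this exact test cannot go below p = 0.333, so pairs of groups were not tested for the ratio. The groups did not overlap in the ratio. Serum and serum return lay closest, with 77.5 counts in the lower serum library and 77.03 in the higher serum return library.

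**Figure D2:**
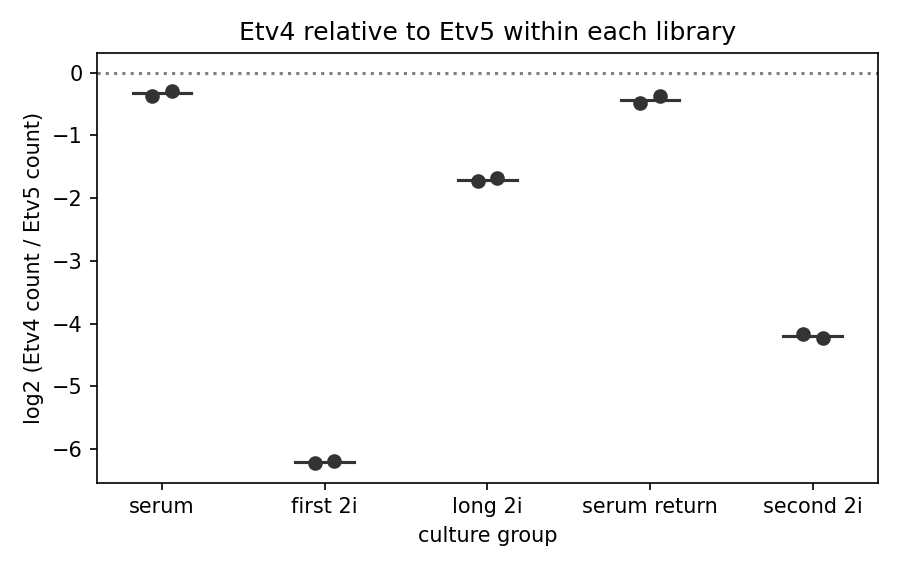
Log2 ratio of Etv4 counts to Etv5 counts in each library (points) and the mean of the 2 libraries (lines), by culture group. The dotted line marks equal counts, and the means run from -0.33 in serum to -6.20 in first 2i.

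How the pair responded when cells first entered 2i was tested with edgeR's quasi-likelihood test and Benjamini-Hochberg adjustment over all 14220 genes. Etv4 fell by 5.94 ± 0.08 (SE) on the log2 scale, or 61.2-fold, from a mean of 282.46 CPM to 4.61 CPM (adjusted p = 2.08e-22). Its change was the 138th largest of the genes tested. Etv5 read 355.99 ± 1.8 CPM in serum and 339.63 ± 5.8 CPM in first 2i (SD, n = 2), a log2 difference of -0.07 with a 95% interval of -0.16 to 0.03 (edgeR adjusted p = 0.186). In this comparison 34.9% of genes tested were called lower and 35.1% higher, so a call as such was common.

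Etv1 fell 3.03-fold in first 2i (edgeR adjusted p = 3.13e-11), so it moved in the direction of Etv4 by less. Of 17 tested genes of the wider ETS family, 10 rose and 5 fell (median log2 fold change 0.28, against 0.01 over all genes). Among all genes 35.1% were called higher and 34.9% lower. Spic, an ETS factor best known from macrophages, rose from 0.413 ± 0.36 to 46.6 ± 0.26 CPM, and Elk3, a partner of the serum response factor, fell 2.68-fold.

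Genes acting upstream of the pair were examined by role. The counts here stand beside 35.1% of all genes called higher and 34.9% lower. Among FGF ligands and receptors 1 of 6 tested genes rose and 4 fell (median log2 fold change -1.58). Fgf4, the main FGF made by embryonic stem cells, rose from 162 ± 1.9 to 232 ± 7.7 CPM, whereas the receptor gene Fgfr3 fell 116-fold from 56.3 ± 5.7 to 0.479 ± 0.15 CPM. In the RAS to ERK cascade itself 6 of 19 genes rose and 7 fell (median -0.05), shares near those of all genes, and the largest change was that of Ptpn11, the phosphatase SHP2 that relays receptor signals, which fell 1.73-fold. Of 5 known regulators of PEA3 genes or proteins, 1 rose and 2 fell: Cic rose 1.29-fold, while Atxn1l, whose product binds Capicua, fell 1.26-fold and Rfwd2, the gene for COP1, fell 1.20-fold. Without replicate 1 of serum, the call of Rfwd2 was lost (edgeR adjusted p = 0.0719).

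Other outputs of the ERK pathway mostly fell with Etv4. Their counts stand beside 34.9% of all genes called lower and 35.1% higher. Of 12 tested negative feedback genes 11 fell and 1 rose (median log2 fold change -1.67), led by the Sprouty gene Spry4 (236-fold lower) and by the phosphatase genes Dusp6 (10.9-fold), Dusp4 (9.90-fold) and Dusp9 (7.25-fold). Of 8 tested immediate-early genes 6 fell and none rose, with Egr1 63.3-fold and Myc 20.1-fold lower. Among these 20 genes 2 fell further than Etv4. Partners of the pair in the exit from naive pluripotency split: Rbpj, the DNA-binding effector of Notch, fell 2.64-fold, while the homeobox gene Otx2 rose 2.38-fold. The epiblast factor Pou3f1 fell 59.8-fold, from 4.67 ± 1.7 CPM to a level near 0 (0.072 ± 0.036 CPM). Tcf7l1, also on this list, was not called (edgeR adjusted p = 0.529).

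Etv4 came back during prolonged 2i although the ERK pathway inhibitor was still in the medium. From first to long 2i it rose 30.0-fold, by 4.91 ± 0.08 (SE) on the log2 scale (edgeR adjusted p = 2.20e-20), the 57th largest change of the genes tested. Etv5 rose 1.33-fold, by 0.41 ± 0.05 (edgeR adjusted p = 1.18e-07). Among all genes 30.4% were called higher and 30.8% lower in this comparison. Etv1 rose 3.14-fold (edgeR adjusted p = 5.37e-11), back to 104% of its mean in serum.

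The rise of Etv4 exceeded that of each of the 20 tested feedback and immediate-early genes. Of the 12 feedback genes 6 rose and 2 fell (median log2 fold change 0.27, against 0.00 over all genes). This count and that of the immediate-early genes stand beside 30.4% of all genes called higher and 30.8% lower. Spry4 rose 11.4-fold but reached 4.84% of its mean in serum, Dusp4 rose 2.77-fold to 27.8%, and Spred3, an inhibitor of RAS signalling, rose 3.27-fold to 148%. Dusp6 stood at 20.1% of serum. Of the 8 immediate-early genes 6 rose, with Egr1 6.61-fold higher at 10.4% of serum and Jun 2.61-fold higher. Myc stood at 10.1% of serum. Against serum, the log2 difference of Etv4 in long 2i (-1.03) lay within the range of these lists, with 11 of the 20 genes above it and 9 below. Spry2 stood at 72.7% of serum and Fos at 64.3%, above the 49.0% of Etv4. Etv5 was above its serum level, and the difference of Etv1 from serum did not pass (edgeR adjusted p = 0.641).

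Upstream, 11 of the 19 genes of the RAS to ERK cascade rose and 8 fell (median log2 fold change 0.27). This count and the next stand beside 30.4% of all genes called higher and 30.8% lower. Among receptors Fgfr2 rose 7.22-fold to 6.91 ± 0.75 CPM and Fgfr3 5.43-fold to 2.61 ± 0.19 CPM. With shares not far from those of all genes, 2 of the 5 regulators of PEA3 genes or proteins rose and 2 fell. Atxn1l had the largest change of them, a 4.20-fold fall from 51.4 and 52.4 CPM in first 2i to 12.5 and 12.2 CPM in long 2i (edgeR adjusted p = 3.50e-14). Rfwd2 fell 1.29-fold and Det1, the partner of COP1, rose 1.25-fold, a call lost without replicate 2 of long 2i (edgeR adjusted p = 0.0842). Cic stood at 129% of its mean in serum in first 2i and 152% in long 2i. Over the groups Atxn1l stood at 79.2% of serum in first 2i, 18.9% in long 2i, 89.7% in serum return and 40.2% in second 2i, so among the 2i groups its order was the reverse of that of Etv4, while in both serum groups Atxn1l and Etv4 were high together. Whether these levels bear on each other was not tested.

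Against serum, long 2i held 2.04-fold less Etv4 (edgeR adjusted p = 4.43e-13) and 1.27-fold more Etv5 (edgeR adjusted p = 9.11e-07). In that comparison 33.9% of genes were called lower and 35.1% higher.

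Return to serum brought Etv4 to its original level. The means were 283.35 ± 13 CPM in serum return and 282.46 ± 7.7 CPM in serum (SD, n = 2), with a log2 difference of 0.00 and a 95% interval of -0.10 to 0.11 (edgeR adjusted p = 0.991). Etv5 read 382.12 ± 3.1 CPM against 355.99 ± 1.8 CPM and did not pass (log2 difference 0.10, 95% interval 0.01 to 0.20, edgeR adjusted p = 0.0906). In this comparison 16.5% of genes tested were called higher and 14.5% lower. They number 4407, and 2437 without replicate 1 of serum return or 2822 without replicate 2 of serum. Of the 12 feedback genes 8 were not called, 1 was higher and 3 were lower, among them Dusp4 and Dusp5 at 65.5% and 64.6% of serum, whose calls were lost without replicate 1 of serum return (edgeR adjusted p = 0.071 and 0.114). From long 2i to serum return Etv4 rose 2.05-fold (edgeR adjusted p = 3.50e-13) and Etv5 fell 1.18-fold (edgeR adjusted p = 6.80e-05), where 35.4% of genes were called higher and 36.0% lower. From first 2i to serum return Etv4 was 61.4-fold and Etv5 1.13-fold higher (edgeR adjusted p = 1.97e-22 and 0.0023, with 34.3% of genes called higher and 33.7% lower).

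**Figure D3:**
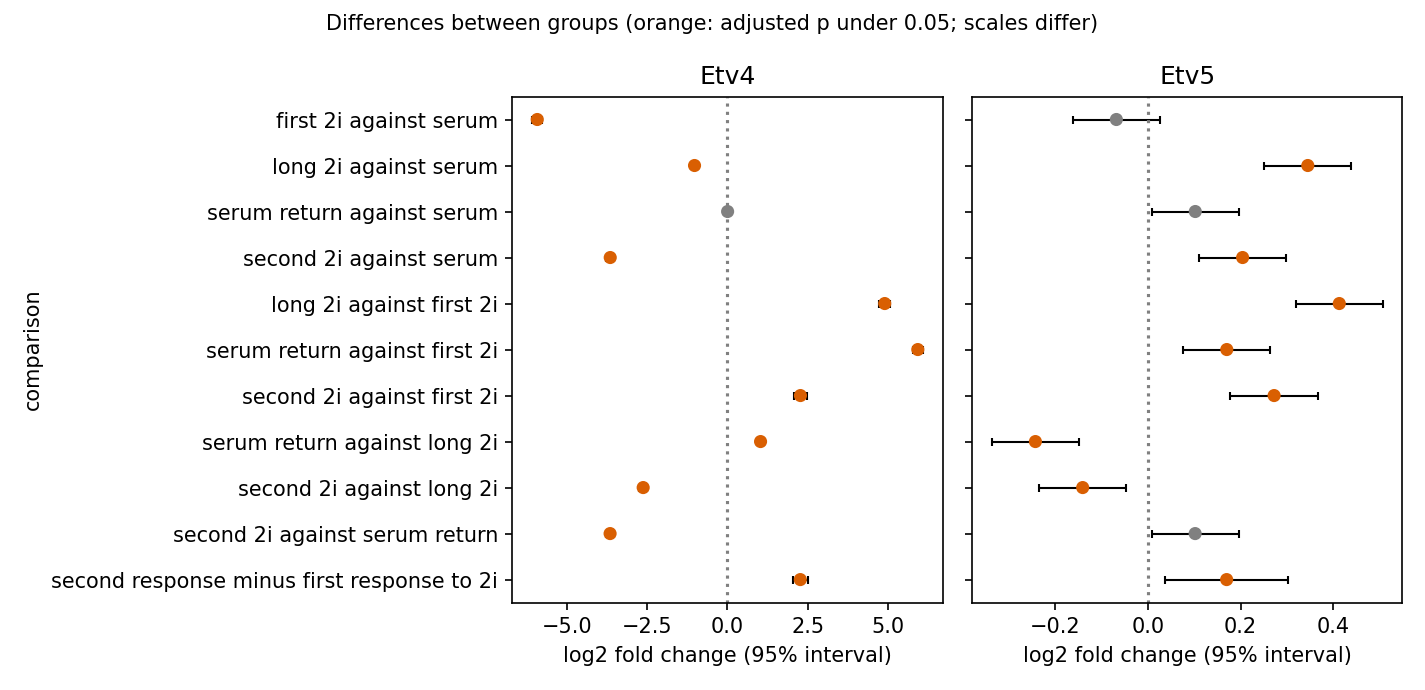
Log2 fold change of Etv4 (left) and Etv5 (right) in 10 comparisons of groups and in the second response to 2i minus the first, with 95% intervals from the edgeR fit and separate axes. Orange points passed an adjusted p of 0.05. Etv4 spans -5.94 to 5.94 and Etv5 -0.24 to 0.41.

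When cells that had returned to serum met 2i again, Etv4 fell less far than the first time. From serum return to second 2i it fell by 3.66 ± 0.06 (SE) on the log2 scale, or 12.7-fold (edgeR adjusted p = 3.33e-20, with 33.3% of genes called lower and 32.3% higher), against 61.2-fold at first. The second response minus the first was 2.27 ± 0.11 on the log2 scale (edgeR adjusted p = 1.35e-11). In that comparison 18.4% of genes were called higher and 21.0% lower. First 2i lasted 5 to 6 passages and second 2i 4 to 5, so history and length of exposure cannot be told apart. Etv5 read 410.1 ± 12 CPM in second 2i and 382.12 ± 3.1 CPM in serum return, a log2 difference of 0.10 with a 95% interval of 0.01 to 0.20 (edgeR adjusted p = 0.0522). Its second response minus the first was 0.17 ± 0.06 (edgeR adjusted p = 0.0398), a call that was lost in 7 of 10 fits that left out 1 library, with adjusted p of 0.0394 to 0.17 over them.

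Etv1 read 24.0 ± 2.1 CPM in serum return and 21.6 ± 0.031 CPM in second 2i (log2 difference -0.16, edgeR adjusted p = 0.139), although it had fallen 3.03-fold at first. The second response of Etv1 minus its first was 1.44 ± 0.14 (edgeR adjusted p = 1.83e-07). Between the 2i groups sampled after few passages, Etv4 was 4.85-fold higher in second than in first 2i (edgeR adjusted p = 5.58e-13), Etv5 1.21-fold (adjusted p = 8.48e-05) and Etv1 2.98-fold (adjusted p = 7.37e-10), where 18.1% of all genes were called higher and 19.6% lower. That comparison called 5357 genes in all, and 3556 without replicate 2 of second 2i. Second 2i stood below long 2i, by 6.19-fold for Etv4 (edgeR adjusted p = 1.38e-17) and 1.10-fold for Etv5 (adjusted p = 0.0118), with 28.4% of genes called lower and 28.1% higher. The Etv5 call was lost without replicate 1 of second 2i (adjusted p = 0.128) and without replicate 2 of long 2i (adjusted p = 0.0675). Against serum, second 2i was 12.6-fold lower for Etv4 (adjusted p = 4.28e-20, with 32.8% of genes called lower) and 1.15-fold higher for Etv5 (adjusted p = 0.000505, with 33.6% called higher).

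The other ERK outputs did not share one pattern in second 2i. Of 12 feedback genes 10 fell and 1 rose from serum return, with Spry4 51.5-fold and Dusp6 9.57-fold lower. Of the 8 immediate-early genes 4 rose and 3 fell, where 32.3% of all genes were called higher and 33.3% lower. Fosb rose from 0.287 and 0.14 CPM to 39.5 and 38.4 CPM and Fos from 6.96 and 5.72 CPM to 131.85 and 130.72 CPM. Egr1 rose from 28.4 and 27.7 CPM to 115.89 and 109.84 CPM, whereas Myc fell 7.22-fold. Both second 2i libraries thus held more Fos, Fosb and Egr1 than any other library, while Etv4 and the feedback genes Spry4 and Dusp6 were low in them. Atxn1l fell 2.23-fold and Cic rose 1.56-fold from serum return, and Spic again rose 67.4-fold. The Wnt feedback gene Axin2, a readout of GSK3 inhibition, stood at 2.68 ± 0.48 CPM in serum and 7.77 ± 0.13 CPM in serum return. It read 68.7 ± 2.6 CPM in first 2i, 74.1 ± 1.5 in long 2i and 85.3 ± 0.0016 CPM in second 2i. Among the 2i groups Axin2 was highest in second 2i, as were the Wnt readouts Cdx1 and Nkd1. In long, second and first 2i Lef1 read 1.85, 0.642 and 0.401 CPM, and T 3.25, 2.07 and 1.31 CPM. Sp5 read 25.1, 24.5 and 14.6 CPM, so the means of Lef1, T and Sp5 ran in the order of Etv4 there. In serum T and Sp5 read 0.0999 CPM and Lef1 1.25 CPM. Whether these levels bear on Etv4 was not tested.

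**Figure D4:**
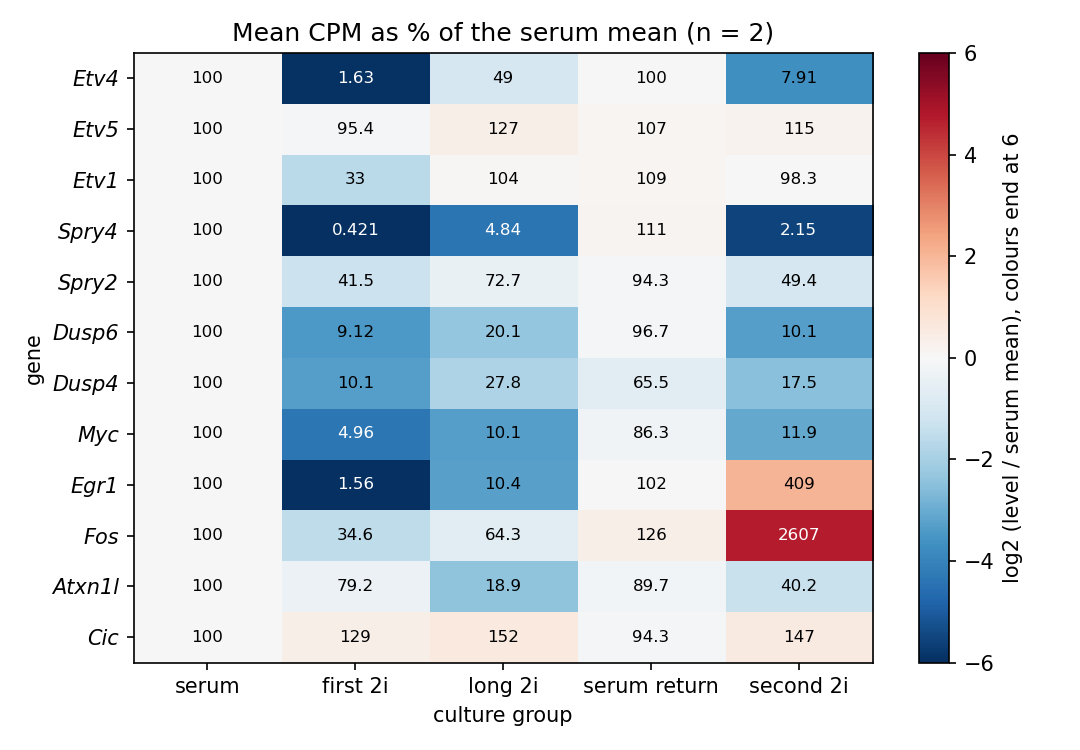
Mean CPM of each gene as a percentage of its mean in serum (numbers in the cells, n = 2 libraries), coloured by the log2 of that ratio, for the PEA3 genes, ERK feedback and immediate-early genes, Atxn1l and Cic. Etv4 goes from 1.63% in first 2i to 49.0% in long 2i, while Spry4 goes from 0.421% to 4.84% and Etv5 lies between 95.4% and 127%.

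In order of level Etv4 ran serum return, serum, long 2i, second 2i and first 2i. Of these neighbours serum return and serum did not differ beyond their spread, and each later step was called, by 2.04-fold, 6.19-fold and 4.85-fold. Etv5 ran long 2i, second 2i, serum return, serum and first 2i. In that order the step from long to second 2i was called, and the 3 later steps were not (edgeR adjusted p = 0.0522, 0.0906 and 0.186). All these comparisons share libraries, and each was set beside the others without a test between them except for the second response against the first.

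The genes whose pattern was most like that of Etv4 were found by Pearson's r of log2 CPM over the 10 libraries, among 1425 genes with at least 5 CPM in some group and group means spanning at least 2 log2 units. They were Tmsb4x (r = 0.995), which encodes an actin-binding thymosin, Tubb3 (0.991), a β-tubulin of neurons, Dpf1 (0.989), 2200002D01Rik (0.988) and Lin28a (0.988), which blocks the maturation of let-7. Lin28a read 253 ± 2.0 CPM in serum, 39.8 ± 0.32 in first 2i, 173 ± 0.30 in long 2i, 242 ± 12 in serum return and 59.1 ± 3.4 CPM in second 2i. The likeness is of pattern and not of size: in first 2i Lin28a stood at 15.7% of its serum mean and Etv4 at 1.63%. For Etv5 the same search among 1426 genes gave Nt5e (r = 0.977), Tuba3a (0.951), Gm21283 (0.93), Slc43a1 (0.925) and Gadd45b (0.915). The group means of Etv5 span 0.41 log2 units, so the bar of 2 left out every gene as flat as Etv5. Gadd45b, a stress-responsive gene, peaked in long 2i at 60.6 ± 3.5 CPM, as Etv5 did. These correlations describe 5 clusters of 2 libraries and carry no test.

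Of the 5 marker sums of other cells, 3 were higher in both serum groups than in every 2i group, as Etv4 was. The fibroblast sum was 14.3 to 29.3 CPM in the serum groups and 1.66 to 4.41 CPM in the 2i groups, and it overlapped between first 2i (1.66 to 2.95 CPM) and long 2i (2.25 to 2.27 CPM), where Etv4 did not. The primitive endoderm sum was 38.3 to 51.4 CPM in the serum groups, 15.8 to 19.4 CPM in long 2i and 5.27 to 6.41 CPM in the other 2i groups. The neural sum was 72.7 to 84.6 CPM in the serum groups and 53.8 to 59.1 CPM in long 2i. It was 33.07 to 35.9 CPM in second 2i and 25.3 to 25.4 CPM in first 2i, the same order of groups as for Etv4. This sum holds Tubb3, named above for its likeness to Etv4, so the shared order is not separate from that likeness. Tubb3 alone read 47.3 CPM in serum, 33.7 in long 2i, 10.5 in second 2i and 6.46 CPM in first 2i. The other sums were highest in first 2i, where Etv4 was lowest. The endothelial and blood sum was 116.9 to 126.6 CPM there and 55.7 to 86.5 CPM in the other groups, and the trophectoderm sum was 48.2 to 52.5 CPM there and 34.4 to 47.7 CPM in the other groups. The part of these cells in the change of Etv4 was not tested.

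Etv4 lies on chromosome 11 between Dhx8 and Meox1, and Etv5 on chromosome 16 between Tra2b and Dgkg, by the order of protein-coding genes in RefSeq (GRCm38.p6), in which no other gene overlaps either. Because the counts were made on mm9, the positions of the genes themselves are not printed. Dhx8, an RNA helicase gene, fell 1.63-fold in first 2i (edgeR adjusted p = 1.61e-09) and read 115 ± 8.7 CPM in long 2i against 114 ± 0.91 CPM in first 2i, so it did not rise with Etv4. Meox1 read 1.96 ± 0.47 CPM in serum and had no counts in first or second 2i. Tra2b, a splicing regulator, rose 1.26-fold from first to long 2i (edgeR adjusted p = 4.16e-05), and Dgkg stayed at 0.248 to 0.811 CPM in group means.

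The sequence around an annotated transcript start of Etv5 is shown because the group means of this gene stayed within 1.33-fold of each other. RefSeq (GRCm38.p6) gives Etv5 2 promoter windows of 300 bases around annotated transcript starts, and Etv4 was not matched. The window at the downstream start, 5′ to 3′ on the minus strand, is:

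Etv5 downstream start, chr16:22438319-22438618: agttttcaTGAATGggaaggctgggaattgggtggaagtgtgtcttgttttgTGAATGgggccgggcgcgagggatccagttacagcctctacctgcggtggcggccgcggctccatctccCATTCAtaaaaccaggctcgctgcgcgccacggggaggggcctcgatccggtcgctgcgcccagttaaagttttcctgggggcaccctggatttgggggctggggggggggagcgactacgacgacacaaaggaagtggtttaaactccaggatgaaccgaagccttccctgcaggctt

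Capitals mark TGAATG or its reverse complement CATTCA, the letters shared by the Capicua octamers searched for, TGAATGAA and TGAATGGA. Other forms of the Capicua site were not searched for. Neither octamer was found in either window on either strand, and 2.47% of 32851 RefSeq promoter windows of the same length hold one. TGAATG itself, chosen after the windows had been read, occurs 3 times in this window and not in the one at the upstream start (chr16:22439521-22439820). Of all windows 12.7% hold it at least once and 0.17% at least 3 times. CCGGAAGT (ETS), TGANTCA (AP-1), TTCNNNGAA (STAT), CTTTGAA or CTTTGAT (TCF/LEF) and CACGTG (E-box) had no match in either window on either strand, and 3.89%, 7.81%, 8.30%, 8.65% and 7.15% of all windows hold them. A match is a description of letters, and neither it nor its absence shows whether a factor binds.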

How the data were processed

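RNA-seq libraries of 10 mouse embryonic stem cell cultures were grouped by the culture medium in the labels. The files deposited by the authors hold raw read counts by gene symbol. The tools named in the submitters' processing notes are TopHat2 2.0.4, HTSeq 0.5.4p5, CASAVA 1.8.2 and DESeq2, with build mm9. The sources used here give neither the annotation nor the strand setting. Records aligned to more than 1 place made up 33.41 to 36.51% of all records and those outside features 10.34 to 11.78%. These and the other summary categories stayed out of library sizes and tests.

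Tests used edgeR 4.0.16 in R 4.3.3: filterByExpr by group (minimum count 10, minimum total 15; 14220 genes), TMM, and a robust quasi-likelihood fit of 5 groups with 5 residual degrees of freedom. There were 11 contrasts, two-sided, with Benjamini-Hochberg adjustment over all genes and a threshold of 0.05. Standard errors came from the fold change and F. Intervals are at 95%. Log2 CPM for correlations used a prior count of 2. The fit was also run on simulated data with 200 changed genes, and the outcome of that run is not reported here.

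The members, lists and tests were chosen with earlier results of these data known. From each list at most the 4 tested genes with the largest change per comparison were to be named. Genes whose share of the serum level is given (Spry2, Fos, Dusp5, Dusp6, Myc, Cic, Atxn1l) or whose values are set beside Etv4 (Axin2) were chosen after their values were seen. Tcf3, planned as an older name of Tcf7l1, is a separate gene in the files and was left out. Alternatives were RLE factors, no filter, DESeq2 1.42.0, a block for the title series, each library left out, and a fit of only the groups compared.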

Additional observations from a re-analysis of the deposited data

Results flagged for a closer look

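The response of Etv4 to 2i differed between first entry and re-entry, by 2.27 on the log2 scale in the edgeR test of the difference: it fell by 5.94 from serum to first 2i and by 3.66 from serum return to second 2i. Etv1 differed by 1.44, with responses of -1.60 and -0.16. The 2i stays compared also differed in length, at 5 to 6 passages on first entry and 4 to 5 on re-entry. Etv5 differed by 0.17, with responses of -0.07 and 0.10, neither of which was called alone. That difference was not called in 7 of 10 fits that left out 1 library, nor without the filter on low counts (edgeR adjusted p = 0.0545).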

How the results depend on the processing

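Of 330 alternative values for the 22 differences of Etv4 and Etv5, 309 kept their sign and their side of the threshold. For Etv4 the exception was serum return against serum, a difference near 0 and never called, which turned to -0.0046 with only the groups compared and -4.07e-07 with DESeq2, and ran from -0.043 to 0.0528 when 1 library was left out (below 0 without replicate 1 of serum or replicate 2 of serum return). For Etv5, second against long 2i ran from -0.17 to -0.11 when 1 library was left out, and second 2i against serum return from 0.0745 to 0.133, the latter passing in 3 of 10 such fits and with only the groups compared (0.11, edgeR adjusted p = 0.044). The Etv5 difference between responses was 0.18 and not called without the filter (edgeR adjusted p = 0.0545), and ran from 0.14 to 0.20 when 1 library was left out. Called genes ran from 2437 to 4477 for serum return against serum and from 3556 to 5438 for second against first 2i. The causes were not tested. A lone library was assumed to vary like the others.

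The 2 title series (LEM and MLE) each hold 1 library of every group, and the labels do not say that they mark a batch. Deviations of same-series libraries correlated positively in all 10 pairs of groups, at 0.0994 to 0.168. The bar for pairing was above 0.1 in every pair, which 9 of 10 met, so the fit without the block was kept. This does not show that the series have no shared effect. With the series as a replicate block, 3 Etv5 differences passed: first 2i against serum (-0.0681, edgeR adjusted p = 0.0383), serum return against serum (0.10, adjusted p = 0.00348) and second 2i against serum return (0.10, adjusted p = 0.00182). The block raised the count of calls in all 11 comparisons, by 1.07 to 1.40 times. The ratio of Etv4 to Etv5 still differed between groups when permuted within series, without each library and with 1 added to each count. Of 900 alternative values for 60 differences of other named genes, 891 kept sign and side. Precision is limited by 2 libraries per group, and the 96 and 97 counts of Etv4 in first 2i are its fewest.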
